A study of Mus musculus with 12 samples.

Results

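Fully grown oocytes held at the germinal vesicle (GV) stage of meiotic prophase were compared between wild-type (WT) mice and mice with a Pabpn1l knockout (KO), all on a C57BL/6 background. The comparison rests on 4 of the 12 libraries of the study, namely WT GV replicates 1 and 2 and KO GV replicates 1 and 2. It covers all 11298 genes with a complete row in the deposited table. The other libraries came from 1-cell and 2-cell embryos of the same genotypes. Each library was made by Smart-seq2, an oligo-dT primed full-length method, from a pool of 10 oocytes. The labels do not state which part of Pabpn1l was removed, how the knockout was made, the age of the females, or whether replicates came from separate animals. The p-values therefore measure only how these samples vary, and part of that variation may be technical.

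Pabpn1l encodes a cytoplasmic protein that binds poly(A) and is made mainly by oocytes. Such proteins coat the poly(A) tail of messenger RNA, where they influence translation and the access of deadenylases that shorten the tail. A growing oocyte stores a large pool of maternal mRNA, stays transcriptionally silent once fully grown, and clears much of that pool after meiosis resumes. The design allows the question of whether the store of transcripts already differed between genotypes before this clearance began.

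Values were in FPKM, mapped fragments scaled by transcript length and by the mapped total of the library. The lowest value in the table was 1 FPKM, called the floor here, and a gene at the floor was at or under that level. The 4 libraries had similar totals, with FPKM sums of 579241 to 606488 and 900 to 1045 genes at the floor. Genes above the floor in at least 2 of the 4 libraries were tested, which left 10478 genes and set aside 820. Fold changes are KO against WT on the log2(FPKM + 1) scale, which understates the change of low genes. A gene was called at a limma adjusted p under 0.05.

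The KO oocytes differed from WT oocytes in few transcripts. Of the 10478 genes, 0 were called higher in KO and 3 were called lower, or 0.0286% of the genes tested. The 3 genes were Pabpn1l itself, Gm9781, a near-identical copy of the translation initiation factor gene Eif3j, and Anpep, which encodes aminopeptidase N. At an unadjusted limma p under 0.05 there were 158 genes higher and 210 lower, together 3.51%. The median fold change of all genes was −0.03 and the median absolute fold change 0.11, on the log2 scale. For 10318 genes, or 98.5%, the 95% interval of the log2 fold change lay between −1 and 1, so that a 2-fold difference in FPKM + 1 fell outside it. For low genes such an interval leaves room for a 2-fold difference in FPKM itself. In the counts of intervals and classes below, 2-fold refers to FPKM + 1. The other 160 genes had intervals that reached past 2-fold, and 74 of those had a mean under 5 FPKM.

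**Figure D1:**
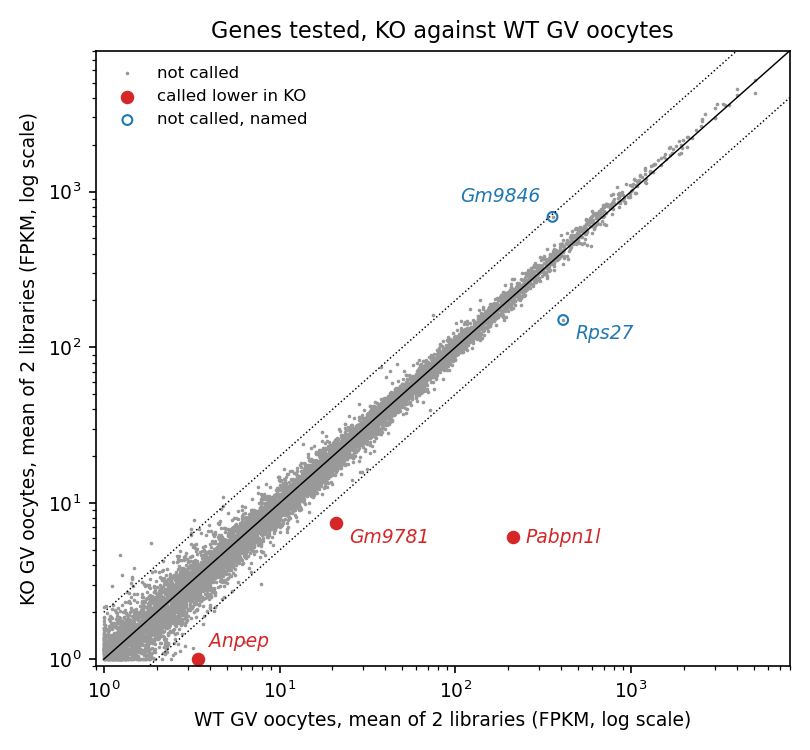
Mean FPKM of the 10478 genes tested in WT (x axis) and KO (y axis) GV oocytes, both on log scales, with the line of equality (solid) and 2-fold lines (dotted). The 3 called genes, Pabpn1l, Gm9781 and Anpep, are filled red points below the lines; Rps27 and Gm9846, not called, are open blue circles on either side of equality.

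The targeted gene was measured first. Pabpn1l stood at 220.1 and 203.9 FPKM in WT replicates 1 and 2, and at 7.23 and 4.98 FPKM in KO replicates 1 and 2. Both KO libraries were far below both WT libraries, and the KO mean was 2.88% of the WT mean. The log2 fold change was −4.92 ± 0.19 (SE, n = 2 per genotype, 95% interval −5.34 to −4.51, limma adjusted p = 1.4e-09). The remaining signal was above the floor in both KO libraries, and the gene-level value does not show which part of the gene it came from. In a pool of oocytes, fewer oocytes with the transcript and less transcript per oocyte cannot be told apart. The size of the difference did not depend on a single library, but the call did. In these fits the lone library of a genotype was taken to vary like the other genotype. Without WT replicate 1 the log2 fold change was −4.87 (limma adjusted p = 0.276) and without WT replicate 2 it was −4.98 (adjusted p = 0.251). Without KO replicate 1 or 2 it was −5.15 (adjusted p = 0.00188) or −4.69 (adjusted p = 0.00593). With no filter on low values the adjusted p was 0.592.

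Genes next to the targeted locus on chromosome 8 did not pass the test. Of the 10 nearest entries on each side in the RefSeq order (GRCm38.p6), many of them RNA genes or pseudogenes, 8 of 20 were tested, and 0 were called by limma or reached an unadjusted p under 0.05. Of the 10 nearest protein-coding genes on each side, a set chosen after seeing the data, 16 of 20 were tested, and again 0 were called or reached that p. Their log2 fold changes ran from −0.37 for Snai3, a zinc-finger repressor gene, to 0.26 for Mvd, a gene of sterol synthesis. The nearest tested neighbours were Trappc2l on one side, at 144.3 and 168.5 FPKM in WT, against 164.6 and 178.6 in KO, and Cbfa2t3 on the other, at 1.58 and 1.44 in WT, against 1.44 and 2.25 in KO. Trappc2l had 1 KO value between its WT values, and Cbfa2t3 was near the floor in all 4 libraries.

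Gm9781 was lower in KO oocytes. It measured 21.8 and 20.4 FPKM in WT, against 6.98 and 8.08 FPKM in KO, with no overlap between the genotypes. The log2 fold change was −1.37 ± 0.21 (SE, n = 2 per genotype, limma adjusted p = 0.0393). RefSeq lists Gm9781 as Eif3j2, and its coding sequence aligned to that of Eif3j (Eif3j1) at 99.2% identity, with 6 of 792 positions differing. Of all stretches of 150 bases in its annotated transcript, the read length of the study, 77.1% were present without a change in an Eif3j transcript. Eif3j, a gene for a loosely bound subunit of translation initiation factor 3, measured 43.2 and 50.8 FPKM in WT, against 64.4 and 57.5 in KO (log2 fold change 0.37 ± 0.17, limma adjusted p = 1). Summed over the pair, the libraries held 65.0 and 71.2 FPKM in WT, against 71.4 and 65.6 in KO, means of 68.1 ± 4.36 and 68.5 ± 4.09 (SD, n = 2). The sum differed by 0.01 on the log2 scale, less than the spread between replicates. How fragments were divided between these copies was not tested, and the Gm9781 value is uncertain. Without any one of the 4 libraries its log2 fold change was −1.47 to −1.28 and the call was lost (limma adjusted p = 0.595 to 1). The call was also lost with a pseudocount of 5 (limma adjusted p = 0.0778) and with no filter on low values (adjusted p = 0.839). Quantile normalization lost it too (adjusted p = 0.101). In 1-cell embryos, which are separate samples, Gm9781 measured 14.2 and 9.69 FPKM in WT, against 13.8 and 16.9 in KO as deposited. In 2-cell embryos it measured 7.33 and 9.92 in WT, against 2.26 and 1.32 in KO. After the scaling described below, its log2 fold changes were −0.63 and −1.88.

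Anpep was low in WT and at the floor in KO. The WT libraries held 3.20 and 3.71 FPKM, and both KO libraries were listed at 1 FPKM. The log2 fold change of −1.15 ± 0.17 (SE, n = 2 per genotype, limma adjusted p = 0.0393) has no fixed size because the KO level was at or under the floor. Anpep passed the filter on low values only through its WT libraries. Without any one library the fold change was −1.24 to −1.07 and the call was lost (limma adjusted p = 0.595 to 1). It was also lost with a pseudocount of 5 (adjusted p = 0.0703), with no filter (adjusted p = 0.592), with quantile normalization (adjusted p = 0.101) and without the intensity trend (adjusted p = 0.148). The 1-cell embryo libraries, which are separate samples, showed the same order, and there too the gene entered the table of tested genes only through WT. Anpep measured 4.61 and 2.97 FPKM in WT 1-cell embryos and was at the floor in both KO 1-cell libraries. In 2-cell embryos WT held 1.98 and 1.91 FPKM and KO 1.81 and the floor.

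The next genes by p-value did not pass the adjustment, and their values are given as measured. Groups that do not overlap are common with 2 libraries per genotype: 2879 genes, 27.5% of those tested, had no overlap. Cox4i2, which encodes a variant subunit of cytochrome c oxidase, stood at 4.89 and 4.66 FPKM in WT, against 10.9 and 11.2 in KO (log2 fold change 1.06 ± 0.22, limma adjusted p = 0.29). Nlrp4e, of an oocyte-expressed NLR family, stood at 78.9 and 64.0 FPKM in WT, against 45.0 and 34.1 in KO (−0.84 ± 0.19, adjusted p = 0.29). In both genes the replicates of a genotype were closer to each other than the genotype means were.

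Pdpn, which encodes the membrane glycoprotein podoplanin, was the most abundant of the leading higher genes after Gm9846, at 120.3 and 123.0 FPKM in WT, against 189.1 and 164.2 in KO (log2 fold change 0.53 ± 0.15, limma adjusted p = 0.78). The long non-coding RNA 9130015A21Rik measured 40.5 and 53.2 FPKM in WT, against 75.1 and 81.7 in KO, and 1700021F07Rik 34.2 and 41.3 in WT, against 57.9 and 92.2 in KO. Dcpp3, Commd10, Rmnd1, 4930511I11Rik (Armc12) and the pseudogene Rplp2-ps1 were further genes whose KO libraries both exceeded both WT libraries, with log2 fold changes of 0.70 to 0.88.

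On the lower side, Xlr5c, an X-linked member of a multicopy family, measured 7.38 and 8.22 FPKM in WT, against 4.47 and 1.64 in KO (log2 fold change −1.21 ± 0.29, limma adjusted p = 0.389), and its value may be shared with its copies. Cldn15, a claudin of tight junctions, measured 27.9 and 29.6 FPKM in WT, against 17.7 and 14.2 in KO (−0.82). Fam25c, 5730507C01Rik, Wfdc15a and Fam57a (Tlcd3a), with WT means of 25.8 to 31.5 FPKM, had log2 fold changes of −0.89 to −0.59. None of these leading genes, apart from Pabpn1l, Gm9781 and Anpep, was called in this fit. When only genes averaging 5 FPKM or more were tested, the limma adjusted p was 0.0124 for Cox4i2, 0.0147 for Nlrp4e, 0.000832 for Gm9846, 0.00591 for both 1700021F07Rik and Xlr5c and 0.0403 for Fam25c, so these 6 were called there.

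**Figure D2:**
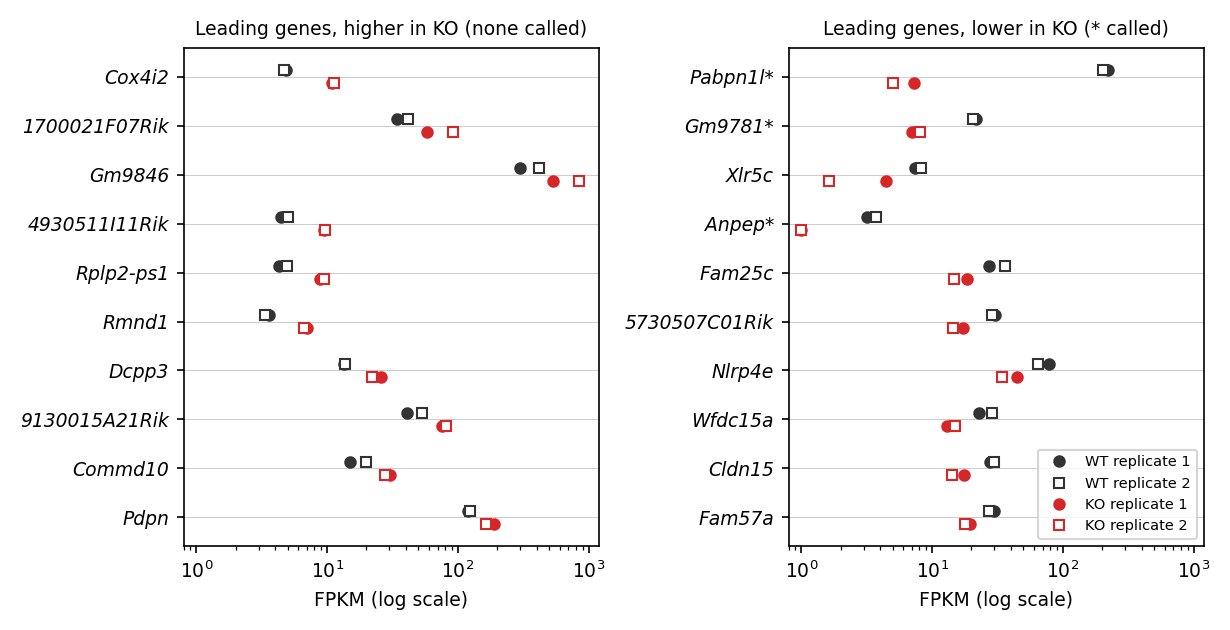
FPKM on a log scale in each of the 4 libraries (WT grey, KO red; circles replicate 1, squares replicate 2) for the 10 leading genes in each direction. No gene on the left was called; on the right Pabpn1l, Gm9781 and Anpep, marked with an asterisk, were called lower, and Pabpn1l has by far the widest gap.

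Low genes can double in FPKM without doubling in FPKM + 1, as 4930511I11Rik did (4.43 and 5.06 FPKM in WT, against 9.40 and 9.70 in KO). A fold change of 2 or more in FPKM + 1 was reached by 10 of the genes tested, 4 higher and 6 lower. They are named here after their values were seen. Besides Cox4i2, the higher ones were Hist1h4d, Hamp2 and Rpl34, and besides Pabpn1l, Gm9781, Anpep and Xlr5c the lower ones were Rps27 and Inha. Hist1h4d, 1 of several near-identical histone H4 genes, measured 1 (the floor) and 1.47 FPKM in WT, against 3.57 and 5.80 in KO (log2 fold change 1.33, limma adjusted p = 0.057). Hamp2, which encodes a hepcidin, measured 1.29 and 2.44 FPKM in WT, against 4.75 and 6.30 in KO (1.21, adjusted p = 0.196). Both stayed under 7 FPKM in every library. With a minimum mean of 2 FPKM, chosen after seeing the data, Hist1h4d (limma adjusted p = 0.0214), Hamp2 (0.048) and Inha (0.0475) were called, and with a minimum mean of 5 FPKM Rps27 (3.02e-05) and Rpl34 (0.0124) were. Replicates of the same genotype differed too, the KO pair within the range of the KO and WT pairs and the WT pair below it. On the FPKM + 1 scale, 25 genes differed at least 2-fold between the WT libraries and 53 between the KO libraries. The 4 pairs of a KO and a WT library had 32 to 67 such genes.

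Rps27, a ribosomal protein gene of the small subunit, had the second largest fold change and was not called. It measured 410.4 and 412.1 FPKM in WT, against 298.9 FPKM in KO replicate 1, and was at the floor in KO replicate 2 (log2 fold change −4.07 ± 1.34, limma adjusted p = 1). It was the 1 gene of the table at the floor in a single GV library with 20 FPKM or more in the other 3. Gm9846, named Rps27rt in RefSeq, encodes a copy of it on chromosome 9, while Rps27 lies on chromosome 3. Gm9846 measured 299.1 and 416.1 FPKM in WT, against 531.2 and 844.1 in KO (0.92 ± 0.21, adjusted p = 0.29). The coding sequences of both genes in GENCODE M21 (GRCm38) are shown because they do not differ at any of 255 positions; capitals mark the start and the stop codon.
Rps27 and Gm9846: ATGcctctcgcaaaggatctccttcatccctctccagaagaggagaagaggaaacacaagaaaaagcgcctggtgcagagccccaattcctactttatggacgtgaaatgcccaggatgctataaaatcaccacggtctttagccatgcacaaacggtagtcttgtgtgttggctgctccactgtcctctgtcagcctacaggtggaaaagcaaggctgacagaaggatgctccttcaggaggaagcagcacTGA
In the annotated Gm9846 transcript, 87.1% of stretches of 150 bases were present without a change in an Rps27 transcript. Summed over the pair, the libraries held 709.5 and 828.2 FPKM in WT, against 830.1 and 845.1 in KO, a difference of 0.13 on the log2 scale. The values of each gene alone ran in opposite directions between KO replicate 2 and the WT libraries, and the sum in KO replicate 2 was within 20 FPKM of those of KO replicate 1 and WT replicate 2. Rpl34 and Rpl34-ps1 form a less alike pair. In the annotated Rpl34-ps1 transcript, 17.6% of stretches of 150 bases were present without a change in an Rpl34 transcript. Rpl34 measured 109.1 and 39.4 FPKM in WT, against 86.8 and 236.4 in KO. The sums of this pair were 541.2 and 598.5 in WT, against 631.7 and 736.6 in KO, a difference of 0.26 on the log2 scale. Both KO sums thus lay above both WT sums. For Rps27, Gm9846, Gm9781 and Rpl34 the value of the single gene is uncertain.

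**Figure D3:**
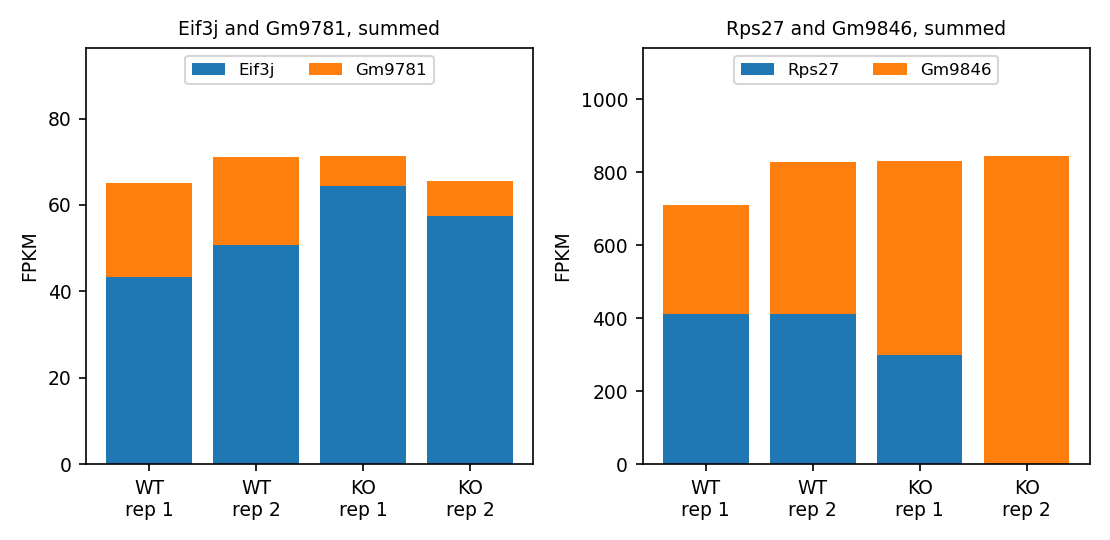
Stacked FPKM of Eif3j with its copy Gm9781 (left) and of Rps27 with its copy Gm9846 (right) in each GV library, axes from 0. The share of each copy differs between libraries, while the stacked totals lie between 65.0 and 71.4 FPKM on the left and between 709.5 and 845.1 FPKM on the right.

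The machinery that binds, shortens and lengthens poly(A) tails was examined next. The poly(A)-binding family list, which also holds partners of these proteins, had 8 members tested and 1 called, Pabpn1l. The other 7 members had intervals within 2-fold. The list's most abundant members were such partners. Paip2, an inhibitor of poly(A)-binding protein, measured 555 ± 44.6 FPKM in WT and 535 ± 19.3 in KO (SD, n = 2). Paip1, a stimulator of translation, measured 265 ± 17.7 in WT and 274 ± 14.5 in KO. None of the 37 genes of deadenylation and mRNA decay was called. Of them 2 were at an unadjusted limma p under 0.05, and all 37 intervals lay within 2-fold. Over all genes tested, 0.0286% were called, 3.51% were at that p and 98.5% had such intervals. The counts of the lists below stand beside the same shares. Btg4, an adaptor between translation factors and the CCR4-NOT deadenylase, measured 2050 and 2148 FPKM in WT, against 2174 and 2290 in KO, an order that quantile normalization reduced to a log2 fold change of 0.01. Lsm5, a subunit of the ring that binds shortened tails before decapping, measured 379.7 and 418.3 FPKM in WT, against 492.4 and 554.6 in KO (log2 fold change 0.39 ± 0.15, limma adjusted p = 1). Lsm3, of the same ring, measured 497 ± 35.3 FPKM in WT and 539 ± 95.5 in KO.

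The factors that read and extend tails in the cytoplasm gave a like result. Of 33 genes of cytoplasmic polyadenylation and translational control, 0 were called, with a median log2 fold change of −0.04 against −0.03 for all genes. Zar1, an RNA-binding protein needed for maternal mRNA stability, measured 793.0 and 615.6 FPKM in WT, against 653.8 and 580.9 in KO, so that the genotypes overlapped. Zar1l, its paralog, measured 636 ± 2.2 FPKM in WT and 675 ± 62 in KO, and Dazl, an RNA-binding activator of translation, 364 ± 39.2 and 347 ± 35.8. Among 22 nuclear cleavage and polyadenylation factors 0 were called and 0 reached an unadjusted limma p under 0.05, against 3.51% of all genes. For all 22 the interval lay within 2-fold, including Fip1l1 at 127 ± 27.6 FPKM in WT and 118 ± 7.88 in KO.

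Oocyte identity and maternal-effect transcripts were at similar levels. Over the 32 genes of the subcortical maternal complex and other maternal-effect genes the median log2 fold change was −0.01 with 0 calls. Of them 2 were at an unadjusted limma p under 0.05, against 3.51% of all genes tested. The linker histone gene H1foo measured 3433 ± 313 FPKM in WT and 3598 ± 416 in KO. Oosp1, an oocyte-secreted protein gene, measured 2997 ± 421 FPKM in WT and 3451 ± 629 in KO. Dppa3, which protects the maternal genome from demethylation, measured 2439 and 2843 FPKM in WT, against 3020 and 3257 in KO (0.25 ± 0.15, limma adjusted p = 1). Nlrp4e, described above, was the lowest member of the list.

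The growth and transcription factors of the oocyte had 22 members tested and 0 called. All 22 had intervals within 2-fold, against 98.5% of all genes. Gdf9 and Bmp15, ligands that the oocyte sends to its cumulus cells, measured 3007 ± 349 and 1673 ± 13.5 FPKM in WT, against 2946 ± 870 and 1705 ± 106 in KO. For Gdf9 the KO replicates, at 3562 and 2331 FPKM, were further apart than the genotype means. Obox2, an oocyte homeobox gene, measured 1728 ± 142 FPKM in WT and 1876 ± 98.5 in KO.

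Cell cycle and small RNA genes followed. None of the 48 genes of meiotic arrest and maturation was called. Pttg1, which encodes securin, measured 2408 and 2676 FPKM in WT, against 2882 and 2954 in KO (log2 fold change 0.20 ± 0.14, limma adjusted p = 1). Ccnb1, which encodes cyclin B1, measured 897 ± 3.23 FPKM in WT and 886 ± 223 in KO, and Birc5, of the chromosomal passenger complex, 1086 ± 95.9 and 1173 ± 12.2. The small RNA pathway had 22 members tested and 0 called. Its most abundant member was Gtsf1, a partner of PIWI proteins, at 938 ± 96.9 FPKM in WT and 1115 ± 72.7 in KO. All 47 chromatin and DNA methylation genes had intervals within 2-fold, against 98.5% of all genes. The maintenance methyltransferase gene Dnmt1 measured 220 ± 2.54 FPKM in WT and 245 ± 59.8 in KO.

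The most abundant transcripts of the 4 libraries differed by little between genotypes. Gm15698 (Elobl), an oocyte-expressed relative of elongin B, measured 5095 ± 490 FPKM in WT and 5190 ± 245 in KO. Ldhb, a lactate dehydrogenase subunit gene, measured 3595 ± 374 FPKM in WT and 3592 ± 376 in KO. Bcl2l10, an oocyte member of the Bcl2 family, measured 3002 ± 106 FPKM in WT and 2984 ± 53.8 in KO. Gm813 (Ftdc1) measured 3085 ± 448 FPKM in WT and 3641 ± 300.0 in KO, E330017A01Rik (Ftdc2) 4009 ± 552 and 4556 ± 174, and Skp1a, a ubiquitin ligase subunit gene, 3315 ± 360.5 and 3665 ± 42.3, with both KO libraries above both WT libraries in each. Tlcd2, H1foo and Oosp1 were also among the 10 highest, and 0 of the 10 were called, with 0 at an unadjusted limma p under 0.05. The exception to close replicates was Rn45s, the ribosomal RNA precursor, at 4050 and 6056 FPKM in WT, against 2446 and 6099 in KO. Lars2, the mitochondrial leucyl-tRNA synthetase gene, was lowest in the same library, at 231.9 FPKM in KO replicate 1 against 399.8 to 510.1 in the other 3.

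Several lists of short and abundant transcripts had medians slightly above that of all genes. Over 81 cytoplasmic ribosomal protein genes the median log2 fold change was 0.13, with 0 called and 2 at an unadjusted limma p under 0.05. Of these members 75 were above 0, against 4423 (42.2%) of all 10478 genes tested. Over 90 nuclear-encoded oxidative phosphorylation genes the median was 0.12, also with 75 members above 0 and with 0 called. Of them 8 were at an unadjusted limma p under 0.05, against 3.51% of all genes tested. Mitochondrial ribosomal protein genes had a median of 0.07 over 75 members. Rpl39 and Rpl41, which encode large-subunit proteins, measured 1651 ± 174 and 1555 ± 88 FPKM in WT, against 1902 ± 214 and 1751 ± 143 in KO. Atp5e, an ATP synthase subunit gene, measured 784.6 and 878.1 FPKM in WT, against 992.4 and 1143 in KO (0.36 ± 0.15, limma adjusted p = 1).

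These shifts moved with the library pair. For ribosomal proteins the median log2 difference was 0.29 between KO replicate 2 and WT replicate 1 and −0.03 between KO replicate 1 and WT replicate 2. For oxidative phosphorylation genes the 4 pairs ran from 0.05 to 0.23, and for all genes from −0.05 to 0.00. Transcript length and level moved with the shift as well. The shortest 20% of all genes by annotated transcript length had a median log2 fold change of 0.03, against −0.05 to −0.03 in the other 4 length classes of that size. The most abundant 20% had a median of 0.02, against −0.06 to −0.03 in the others. The median length was 1076 bases for the ribosomal proteins and 1135 for the oxidative phosphorylation genes with a length, against 3159 for all genes matched by symbol. The part of length and level in the shift was not tested. With quantile normalization the medians were 0.06 and 0.09.

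**Figure D4:**
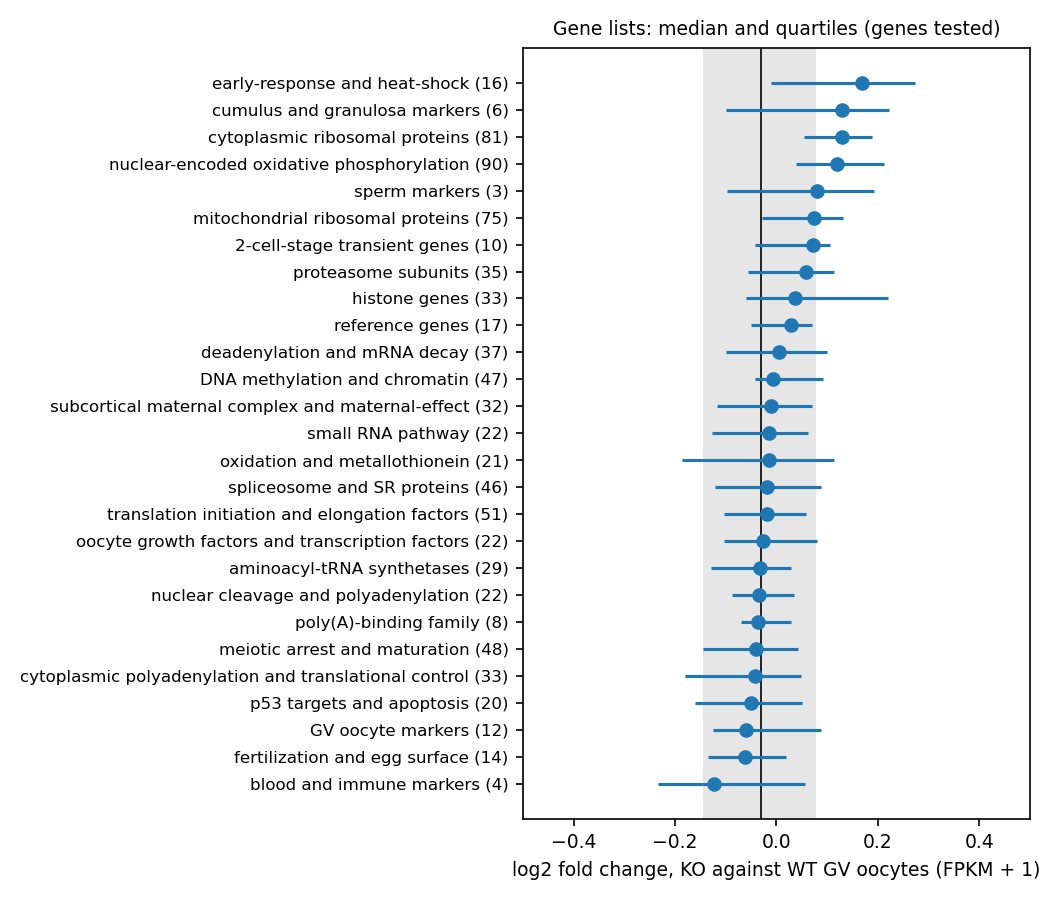
Median (point) and quartiles (line) of the log2 fold change, KO against WT GV oocytes, for each gene list with at least 3 tested members, with the number tested in parentheses. The vertical line is the median of all genes (−0.03) and the grey band their quartiles; every list median lies between −0.13 and 0.17.

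Stress and housekeeping lists held no called gene. Over the 16 genes of early response and heat shock the median log2 fold change was 0.17. Hspb1, Fos and Ier2 were the 3 at an unadjusted limma p under 0.05, against 3.51% of all genes tested. Hspb1, a small heat-shock protein gene, measured 11.8 and 9.30 FPKM in WT, against 15.6 and 17.6 in KO, while Fos and Ier2 were under 5 FPKM in every library. When only genes averaging 5 FPKM or more were kept, the list's median was 0.04. Hsp90aa1 and Hspa8, abundant chaperone genes, measured 1205 ± 162 and 608 ± 0.762 FPKM in WT, against 1409 ± 192 and 659 ± 57.4 in KO. The p53 target and apoptosis list had a median of −0.05, the antioxidant list −0.02, the reference genes 0.03, the proteasome 0.06, the histone genes 0.04, the spliceosome −0.02 and the transient genes of the 2-cell stage 0.07. Genes of fertilization and the egg surface had a median of −0.06, translation factors −0.02 and aminoacyl-tRNA synthetases −0.03.

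Marker levels fitted the labelled cell type. All 12 GV oocyte markers, among them Gdf9, Bmp15, Mos and Zar1, were above the floor, and their summed FPKM was 14838 and 15107 in WT, against 15695 and 14383 in KO. Of 14 cumulus and granulosa markers, 8 were in the table, and their sums were 84.0 and 89.3 FPKM in WT, against 94.8 and 83.1 in KO. Most of that sum came from Esr2 and Cyp19a1, and Amhr2, the receptor for anti-Müllerian hormone, was at the floor in all 4 libraries. Inha, the inhibin alpha gene of granulosa cells, measured 3.05 and 9.49 FPKM in WT, against 1.07 and 1.53 in KO (log2 fold change −1.51, limma adjusted p = 0.29), whereas Fshr, the follicle-stimulating hormone receptor gene, measured 1 (the floor) and 1.06 in WT, against 2.02 and 2.38 in KO (0.66, adjusted p = 0.453). These 2 granulosa markers lay in opposite directions, both at low level and neither called. Summed blood and immune markers were 18.6 to 20.1 FPKM over 5 genes, summed sperm markers 59.1 to 73.1 FPKM over 3 genes, and theca markers were represented by Dcn alone, at 1 to 2.31 FPKM.

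The GV libraries were then read for the transcripts that differed between KO and WT after fertilization. Classes of transcripts were taken from the embryo libraries, which share no sample with the oocyte libraries, at a limma adjusted p under 0.05 and a 2-fold or larger difference after scaling. Scaling divided the 1-cell libraries by 1.25 and 1.68 in KO and by 0.769 and 0.625 in WT. Higher and lower in embryos are therefore relative to the median gene, and a difference common to most genes would not appear. In 1-cell embryos 428 genes (6.46% of 6628 tested) were higher and 58 (0.875%) lower in KO. In 2-cell embryos 353 genes (5.91% of 5972 tested) were higher and 859 (14.4%) lower.

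Transcripts that were more abundant in KO embryos were close to their WT level in KO oocytes. The 428 genes higher in KO 1-cell embryos had a median log2 fold change of 1.41 there and of 0.03 in GV oocytes, where 0 were called and 427, or 99.8%, had intervals within 2-fold. Of the 353 genes higher in KO 2-cell embryos, 347 were tested in oocytes. Their median was 1.36 in the embryos and 0.05 in oocytes, with 0 called and 341 intervals within 2-fold. Their quartiles in oocytes were −0.03 and 0.15, against −0.14 and 0.08 for all genes. Their median WT oocyte level was 99.4 FPKM against 11.3 for all genes. Above 0 in oocytes were 57.9% of the higher 1-cell class and 66.9% of the higher 2-cell class, against 42.2% of all genes. For the classes lower in KO embryos these shares were 55.2% and 50.6%.

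Rn45s was at the floor in all 4 WT embryo libraries, so that its embryo difference has no fixed size, and measured 3286 and 4838 FPKM in KO 1-cell and 1603 and 1325 in KO 2-cell embryos, against −0.36 ± 0.30 on the log2 scale in oocytes. Other members with large embryo differences and at least 5 FPKM in oocytes are given by their values. Cox7c, a cytochrome c oxidase subunit gene, had a log2 fold change of 4.36 in 1-cell embryos, where 1 WT library was at the floor, and its oocyte values were 545.0 and 628.4 FPKM in WT, against 621.8 and 653.6 in KO (0.12 ± 0.14). Hist1h2bc, a histone H2B gene, had 4.37 in 1-cell embryos, and its oocyte values were 287.2 and 313.8 FPKM in WT, against 307.6 and 337.3 in KO (0.10 ± 0.15). Tm2d1 had 3.92 in 2-cell embryos, with oocyte values of 325.6 and 374.3 FPKM in WT, against 368.8 and 325.4 in KO (−0.01 ± 0.15). For 2410004A20Rik (Khdc3), of the subcortical maternal complex, the 1-cell difference was 3.54 and the oocyte values were 342.1 and 331.1 FPKM in WT, against 374.8 and 313.9 in KO. Plac1l (Oosp2), an oocyte-secreted protein gene, had 3.72 in 2-cell embryos, with oocyte values of 1251 and 1419 FPKM in WT, against 1416 and 1529 in KO (0.14 ± 0.14). Lsm5, described above, had the largest oocyte difference among these named members, 0.39 against 4.09 in 2-cell embryos.

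Transcripts that were less abundant in KO embryos also had oocyte medians near 0. The 58 genes lower in KO 1-cell embryos had a median log2 fold change of −1.10 there and 0.02 in oocytes. The 2 of them called in oocytes were Pabpn1l and Anpep, and 54, or 93.1%, had oocyte intervals within 2-fold, against 98.5% of all genes. The largest 1-cell differences after Pabpn1l were those of Atp6v1g1 (−2.05), Sec62 (−1.95) and Frg1 (−1.89), with 0.02, 0.15 and 0.23 in oocytes. Sod1, the cytosolic superoxide dismutase gene, had −1.77 in 1-cell embryos, with oocyte values of 1531 and 1545 FPKM in WT, against 1629 and 1697 in KO. Cdk1, the kinase that drives entry into M phase, had −1.66 in 1-cell embryos, with oocyte values of 82.6 and 100.1 FPKM in WT, against 98.4 and 85.5 in KO. Of the 859 genes lower in KO 2-cell embryos, 783 were tested in oocytes. Their median was −1.48 in the embryos and 0.00 in oocytes, and Gm9781 was the only one called. Nme2, Cdk2ap1 and Snrpc had the largest 2-cell differences, −4.0, −3.77 and −3.53, with −0.06, 0.18 and −0.24 in oocytes. Ube2c, an enzyme of the anaphase-promoting complex pathway, had −3.37 in 2-cell embryos, with oocyte values of 259.2 and 297.7 FPKM in WT, against 252.9 and 241.0 in KO (−0.17 ± 0.15).

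**Figure D5:**
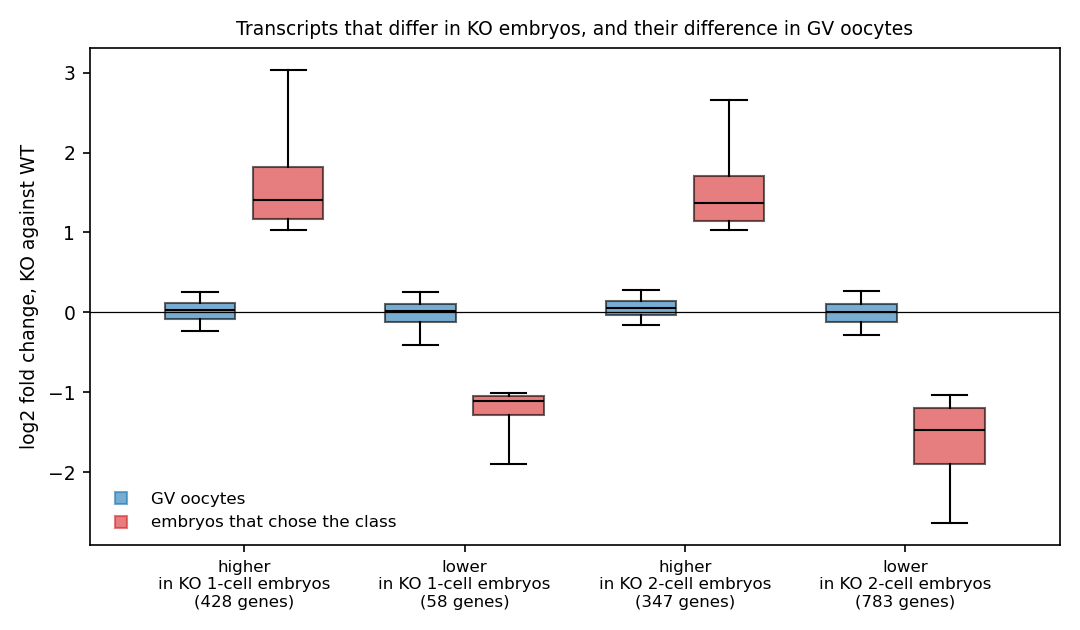
Log2 fold change, KO against WT, of transcripts that differed in KO 1-cell or 2-cell embryos, in the embryos that chose each class (red) and in GV oocytes (blue); boxes show the median and quartiles and whiskers the 5th and 95th percentiles. The embryo boxes lie past 1 or −1 by the choice of class, and the oocyte boxes are centred between 0.00 and 0.05.

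Across genes, fold changes in oocytes had little relation to those in embryos. Without Pabpn1l, Pearson's r was 0.04 with the 1-cell stage over 6619 genes and 0.09 with the 2-cell stage over 5713 genes, where genes are not independent replicates and each stage's genes share the same libraries. The median absolute log2 fold change was 0.26 over the 6628 genes tested in 1-cell embryos and 0.47 over the 5972 tested in 2-cell embryos. In oocytes it was 0.10 over those genes of either stage that were also tested there.

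Transcripts were also ordered by how far they persisted from the oocyte into WT 1-cell embryos, for the 7109 genes averaging 5 FPKM or more in oocytes. From the least to the most persistent quartile, the median log2 fold change between KO and WT oocytes was 0.01, −0.04, −0.05 and −0.02. The quartiles held 1, 0, 0 and 1 called genes.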

How the data were processed

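The authors deposited 1 table of FPKM values with a floor of 1 FPKM. The genome build was mm9, and the tools were Cufflinks 2.2.1 and TopHat2 2.1.1, per the submitters' processing notes. The table ran alphabetically from 0610007C21Rik to Zc3h14, and genes later in the alphabet were not analysed here. It held 0 ERCC entries and 0 mitochondrially encoded genes, 1 incomplete row was left out, and depth is unknown because FPKM keeps no read count. Complementary DNA was primed with oligo-dT, per the labels' protocols, so transcript level and poly(A) tail length cannot be told apart.

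Values were analysed as log2(FPKM + 1), with no scaling between GV libraries, in limma 3.58.1 (R 4.3.3) on the 4 GV libraries with an intensity trend. Two-sided p-values were Benjamini-Hochberg adjusted over 10478 genes above the floor in at least 2 libraries. ± is the SE beside fold changes and the SD beside FPKM. Embryo classes came from the same test on the 4 libraries of a stage after median-ratio scaling, since embryo columns carry an extra factor per library.

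Genes named are Pabpn1l, the 10 leading genes per direction (called, then by p with a mean of at least 5 FPKM and no overlap), the 3 most abundant and the called members of each list, the 10 most abundant genes and the neighbours of Pabpn1l. Others were named after their values were seen, copy pairs and the largest class members included. Members and lists were chosen with earlier results of these data known. Gene names matched RefSeq for 10415 genes. Transcript lengths, found for 98.9% of genes, came from GENCODE M21 in place of the planned RefSeq table, whose lengths span whole genes. Alternatives covered pseudocount, filter, scaling, samples in the fit, variance model, replicate block and leaving out each library.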

Additional observations from a re-analysis of the deposited data

Results flagged for a closer look

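The leading genes were chosen for no overlap between KO and WT in GV oocytes. For 3 of the 13 tested in 1-cell embryos and 3 of the 11 tested in 2-cell embryos, 5 genes in all, the embryo libraries did not overlap in the opposite direction. Over all genes with no overlap in oocytes that share was 28.0% of 1587 in 1-cell and 34.2% of 1427 in 2-cell embryos. The leading genes did not exceed these shares. The difference between stages was not tested. Oocyte values are log2 fold changes of FPKM + 1, and embryo values are the same after median-ratio scaling.

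Pdpn had 0.53 in oocytes, −0.40 in 1-cell and −0.60 in 2-cell embryos (limma adjusted p = 0.153 and 0.0635). As deposited, its 1-cell values were 19.1 and 15.8 FPKM in WT, against 25.3 and 29.0 in KO, the same direction as in oocytes. Cldn15 had −0.82 in oocytes and 0.80 in 1-cell embryos, where all 4 scaled values were under 6 FPKM (limma adjusted p = 0.0474). Wfdc15a had −0.83 in oocytes and 1.00 in 1-cell embryos (limma adjusted p = 0.0609). Gm9846, the copy of Rps27, had 0.92 in oocytes and −2.52 in 2-cell embryos, at scaled values of 58.8 and 86.7 FPKM in WT, against 21.2 and 6.17 in KO (limma adjusted p = 0.0309). Nlrp4e had −0.84 in oocytes and 1.16 in 2-cell embryos, at scaled values of 8.33 and 4.73 FPKM in WT, against 12.8 and 18.3 in KO (limma adjusted p = 0.0438). At the other embryo stage, Gm9846 had 0.72 in 1-cell embryos, the same direction as in oocytes (limma adjusted p = 0.00901). Wfdc15a had −0.11 in 2-cell embryos, also the oocyte direction, and Nlrp4e 0.14 in 1-cell embryos, the opposite one. Cldn15 was not tested in 2-cell embryos.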

How the results depend on the processing

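The count of called genes depended on the setting; 0 were higher and 3 lower. No pseudocount gave 1 higher. A mean of at least 5 FPKM gave 6 higher and 7 lower. Of those, Gm12238, Scarna3b and Apoo-ps were above the floor in fewer than 2 libraries. A mean of at least 2 FPKM, chosen after seeing the data, gave 2 higher and 4 lower. Median-ratio size factors gave 3 higher, and the robust variance 1 higher. A pseudocount of 5 and quantile normalization each gave 1 lower, and no filter gave 0 lower. All 12 libraries in 1 fit gave 50 higher and 94 lower; of these 144 genes, 89 (61.8%) were at the floor in all 8 embryo libraries, against 14.0% of genes tested. Leaving out 1 library gave 0 to 0 higher and 0 to 2 lower; 0 genes were called without WT replicate 1 or without WT replicate 2, Rps27 and Pabpn1l without KO replicate 1, and Pabpn1l without KO replicate 2. The replicate block gave 24 higher and 24 lower. The labels give a replicate number and do not state a pairing of libraries. Deviations of WT and KO replicate 1 from their group means correlated at 0.17 over 10478 genes. With 2 libraries per genotype this value cannot settle whether the libraries were paired. The causes were not tested.

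No called value changed sign. Of 2966 comparisons of a gene, list or class value with an alternative, 166 changed sign, all for values not called, with sizes of at most 0.37 for genes and 0.16 for medians. By size and call, 2835 kept their size and call, 64 moved, 49 became called (22 genes under the replicate block, 11 with all 12 libraries, 8 with a mean of at least 5 FPKM) and 18 lost a call, the last all for Pabpn1l, Gm9781 and Anpep. With 2 libraries per genotype the median SE was 0.20 on the log2 scale.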
